A study of Sus scrofa with 9 samples.

Results

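Primary granulosa cells of the pig ovary treated with follicle-stimulating hormone (FSH) were compared with control granulosa cells, using the genes in the deposited table with an expression level of at least 1 FPKM in 3 or more of the study's 9 libraries. FPKM is the number of sequenced fragments per kilobase of transcript, scaled to a common library depth. This rule kept 919 of 1081 genes, in 6 of the 9 libraries: FSH replicates 1 to 3 and control replicates 1 to 3. The other 3 libraries were from cells given sulforaphane, a plant isothiocyanate, and are described only where the FSH values are set beside another treatment. They also took part in the filter and in the fit that gave the spread between replicates. Every library came from wild-type primary cells of the ovary, and the labels give no dose, no duration, no age of the animals and no vehicle. Nothing in the labels tells whether replicate libraries stem from different animals or cultures. The p-values therefore measure only the spread between these samples, which may be technical.

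FSH is the pituitary hormone that drives the growth of the follicle. Its receptor sits on granulosa cells and acts through cyclic AMP and protein kinase A, and the best-known targets are genes of steroid hormone synthesis, the inhibin subunits and, late in follicle growth, the receptor for luteinizing hormone. Granulosa cells in culture attach, spread and build actin fibres, and FSH or cyclic AMP is known to round them up and to reduce those fibres.

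In cells treated with FSH, compared with control cells, 4 of 5 tested steroid synthesis genes were higher (38 listed). Inhibin subunit beta A and follistatin were also higher, while 7 of the 11 tested genes of their list were lower. Of 17 tested contractile and actin cytoskeleton genes 15 were lower, as were 9 of 11 genes of cholesterol synthesis and uptake. The 4 tested small heat shock proteins were lower too. Of the 919 genes tested, 508 were higher with FSH (55.3%) and 392 were lower (42.7%). In all, 900 passed at a Benjamini-Hochberg adjusted p of 0.05 in edgeR's quasi-likelihood test (97.9%), and 19 did not. The FPKM values of the 3 FSH and the 3 control libraries did not overlap for 907 genes (98.7%). The table holds hardly any gene with a small difference from control: taking log2 fold changes without their sign, the 1st percentile lay at 0.37 in FSH against control and at 0.0057 in FSH against sulforaphane. The sources used here do not give how the authors chose the rows, so the counts describe this table and not the transcriptome. Passing the test is no result about any single list of genes. In a fit of the FSH and control libraries alone, all 919 genes passed. The adjusted p-values given below are therefore not taken as independent support for any single gene. In what follows the direction and size of each change carry the description. The counts of each list are to be read beside the 55.3% higher and 42.7% lower over all tested genes.

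Library depths, in units of 1000000 fragments, were between 16.6 and 22.3, and the table took in between 6.72% and 8.38% of them. Most changes were moderate, with a median rise of 1.54-fold and a median fall of 1.6-fold. A change of at least 2-fold was reached by 122 genes that rose (13.3%) and 92 that fell (10%). A change of at least 4-fold was reached by 39 that rose (4.24%) and 7 that fell (0.762%), and one of at least 8-fold by 15 that rose (1.63%) and 1 that fell (0.109%). The median log2 fold change over all 919 genes was 0.41, and scaling with TMM factors moved it by 0.18 to 0.58 without turning the direction of any gene. In RNA from a whole culture, fewer cells of a type and less RNA per cell cannot be told apart. The filter was reached through the FSH libraries alone by 19 of the 919 genes, which had to be higher with FSH than with control and with sulforaphane. Of those described below, these are MRO, SV2C, SLC46A3, ADAMTS4, RGS4 and CXCL12. Through the control libraries alone it was reached by 24, which had to be lower with FSH. They include TRIM63, HDAC9, LRRC39, DIRAS2, LDB3, PER2, CAVIN2 and KCNA5.

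**Figure D1:**
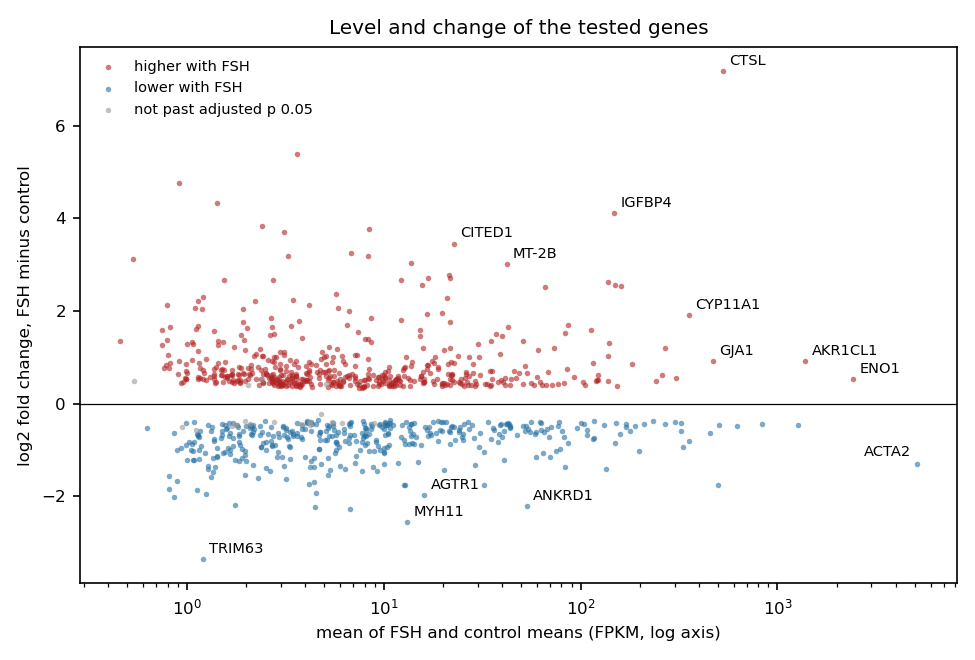
Each point is 1 of the 919 tested genes, with its level (mean of the FSH and control means, FPKM, log axis) on the horizontal axis and its log2 fold change (FSH minus control) on the vertical axis. Points are red where the gene was higher with FSH, blue where it was lower and grey where it missed an adjusted p of 0.05. CTSL stands apart at the top at a high level, the largest falls are smaller than the largest rises, and a band around 0 holds hardly any gene.

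The 12 largest rises and the 12 largest falls are given here for genes with a symbol whose FSH and control libraries did not overlap, a condition of the choice; 11 of the 12 rises are described. The largest rise was that of CTSL, which encodes cathepsin L, a lysosomal cysteine protease. It was measured at 1099, 1103 and 956 FPKM in the 3 FSH libraries, against 7.97, 7 and 6.86 FPKM in the 3 control libraries. CTSL was thus a scarce transcript in control cells and the most abundant of the genes that rose by at least 2-fold, with a log2 fold change of 7.18 ± 0.13 (SE; 145-fold; edgeR adjusted p = 5.96e-13). Its gene lies on chromosome 10, 27668523 to 27674705 in the Sscrofa11.1 annotation. IGFBP4, a secreted protein that binds insulin-like growth factors and limits their action, was the other abundant transcript among the largest rises, at 275, 302 and 261 FPKM with FSH and 15.3, 15.4 and 17.6 FPKM in control libraries. Its log2 fold change was 4.12 ± 0.11 (17.3-fold; edgeR adjusted p = 4.6e-11), and the gene lies on chromosome 12, 21966524 to 21980043. CITED1, a transcriptional coregulator that binds CBP and p300, had 41.1, 45.3 and 38.7 FPKM with FSH and 3.25, 4.59 and 3.62 FPKM in control libraries. MT-2B, a metallothionein that binds zinc and copper, had 83.3, 73 and 68.4 FPKM with FSH and 9.75, 9.14 and 8.99 FPKM in control libraries. In each of these 4 genes the lowest FSH library was at least several times above the highest control library. CITED1 rose 11-fold and MT-2B 8.05-fold.

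A second group among the 12 largest rises consisted of genes that control cells scarcely expressed. MRO, named maestro after its expression in the developing mouse testis, had 1.38, 1.75 and 2.06 FPKM with FSH and 0.12, 0.16 and 0.02 FPKM in control libraries. The control level rests on few fragments: the 3 control libraries together counted 6 for MRO, so that its log2 fold change, 4.76 ± 0.46, is less precise than that of CTSL. SV2C, a glycoprotein of synaptic vesicles, had 2.47, 2.98 and 2.69 FPKM with FSH and 0.09, 0.13 and 0.17 FPKM in control libraries. SLC46A3, a transporter of the lysosomal membrane, had 4.41, 4.73 and 4.33 FPKM with FSH and 0.3, 0.33 and 0.33 FPKM in control libraries. The log2 fold change was 4.34 for SV2C and 3.83 for SLC46A3.

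The last 4 rises described were those of HP, ADAMTS4, SPP1 and RGS4. HP, which encodes haptoglobin, the plasma protein that captures free haemoglobin, had 14, 18.3 and 14.7 FPKM with FSH and 1.05, 1.11 and 1.25 FPKM in control libraries (13.7-fold). ADAMTS4, a protease that cleaves proteoglycans, had 5.62, 5.94 and 5.77 FPKM with FSH and 0.34, 0.45 and 0.52 FPKM in control libraries (13.1-fold). SPP1, which encodes osteopontin, a secreted phosphoprotein that binds integrins, had 15.7, 13.7 and 15.8 FPKM with FSH and 1.46, 1.7 and 1.79 FPKM in control libraries (9.1-fold). These 3 code for secreted proteins. RGS4, which shortens signalling by G protein-coupled receptors, had 6.19, 5.78 and 5.69 FPKM with FSH and 0.71, 0.65 and 0.48 FPKM in control libraries (9.17-fold). The highest edgeR adjusted p among the rises described was that of MRO, at 2.14e-06. MRO, SV2C, SLC46A3, ADAMTS4 and RGS4 reached the filter through the FSH libraries alone, which also set their direction. Beyond the limit on all p-values given above, theirs are no support for the rise.

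The largest falls were smaller and lay mostly in genes known from muscle. TRIM63, a muscle ubiquitin ligase also called MuRF1, had 0.05, 0.31 and 0.27 FPKM with FSH, against 2.03, 2.63 and 1.94 FPKM in control libraries. It was the only gene that fell at least 8-fold (10.2-fold; log2 fold change -3.36 ± 0.48), and the 3 FSH libraries together counted 14 fragments for it. MYH11, the smooth muscle myosin heavy chain, had 3.83, 3.85 and 3.79 FPKM with FSH and 21.4, 21.7 and 24.3 FPKM in control libraries. Its log2 fold change was -2.55 ± 0.12 (5.87-fold lower, edgeR adjusted p = 3.94e-09). The counts of MYH11 were not whole numbers, read here and below as reads divided among loci, which makes its level uncertain. ANKRD1, a nuclear cofactor of muscle and a target of the YAP and TEAD transcription factors, had 14.1, 21.1 and 21.8 FPKM with FSH and 82.7, 87.3 and 93.1 FPKM in control libraries, also from divided reads. The FSH libraries of ANKRD1 differed more among themselves than the control libraries did on a log scale, but the groups were well apart (4.62-fold lower). LDB3, a protein of the Z-disc, had 0.34, 0.32 and 0.39 FPKM with FSH and 1.3, 1.13 and 1.39 FPKM in control libraries. PPP1R12B, a targeting subunit of myosin phosphatase, had 14.7, 13.9 and 15.1 FPKM with FSH and 49.6, 48.2 and 53.3 FPKM in control libraries. PPP1R12B thus fell 3.39-fold at a level well above that of LDB3 (3.58-fold). LRRC39, a protein of the sarcomere M-band with divided reads, fell 4.04-fold.

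The other 6 of the 12 largest falls were those of GDF6, AGTR1, HDAC9, HSPB3, DIRAS2 and LTBP2. GDF6, a ligand of the bone morphogenetic protein family, had 2.02, 2.07 and 2.76 FPKM with FSH and 10.7, 10.1 and 12.6 FPKM in control libraries (4.84-fold lower; chromosome 4, 40473015 to 40491142). AGTR1, a receptor for angiotensin II, had 6.22, 6.73 and 6.57 FPKM with FSH and 25.1, 28.4 and 23.6 FPKM in control libraries (3.95-fold lower). HDAC9, a histone deacetylase that restrains MEF2 transcription factors, had 0.52, 0.61 and 0.61 FPKM with FSH and 2.62, 2.7 and 3.43 FPKM in control libraries (4.55-fold lower). GDF6 and AGTR1 stayed above 1 FPKM in every FSH library, while HDAC9 did not. HSPB3, a small heat shock protein of muscle, fell 3.8-fold, DIRAS2, a small GTPase, fell 3.66-fold, and LTBP2, a matrix protein related to the latent TGF-beta binding proteins and counted from divided reads, fell 3.4-fold. The highest edgeR adjusted p among these 12 falls was 0.000119, for LRRC39. The direction of TRIM63, HDAC9, LRRC39, DIRAS2 and LDB3 was also set by the filter, which they reached through the control libraries alone. Beyond the limit on all p-values given above, theirs are no support for the fall.

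**Figure D2:**
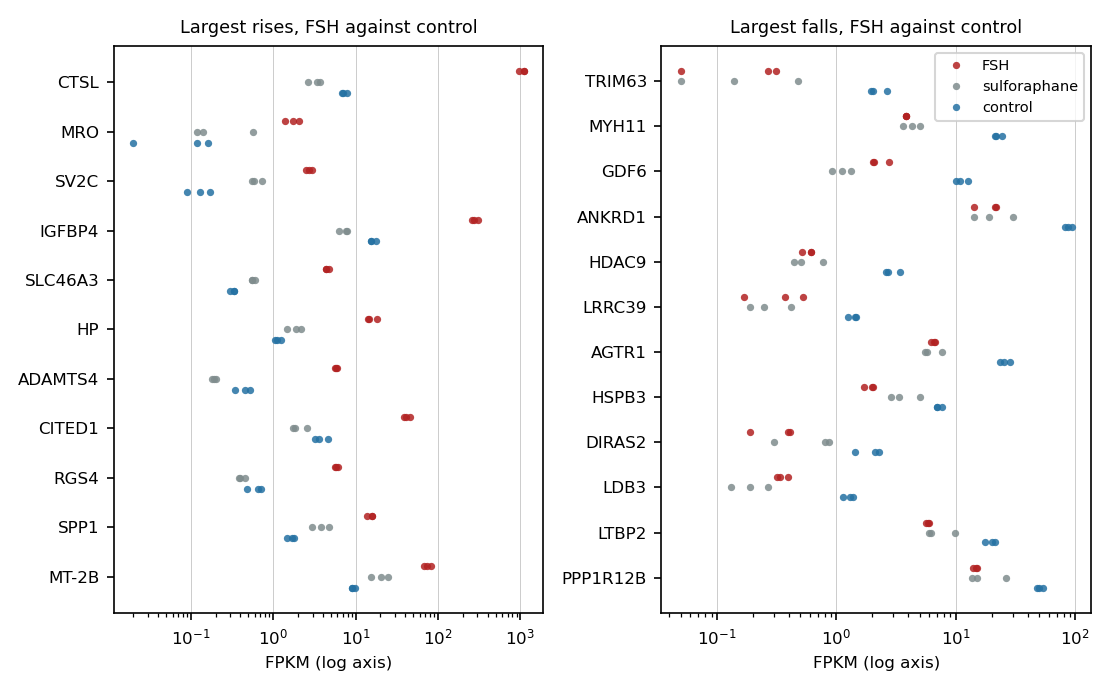
FPKM on a log axis in each library of FSH (red), sulforaphane (grey) and control (blue) cells, for 11 of the 12 genes with a symbol that rose most (left) and the 12 that fell most (right). Genes were chosen on the condition that red and blue points do not overlap. In the left panel the grey points lie below the blue ones for CTSL, IGFBP4, ADAMTS4, CITED1 and RGS4, and in the right panel they lie near the red ones in most rows.

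Of the list of FSH receptor, protein kinase A and cyclic AMP feedback genes, 7 of 61 were tested, 4 higher and 3 lower with FSH, and FSHR itself is not analysed here. PRKACB, a catalytic subunit of protein kinase A, rose 1.31-fold, with 5.71, 6.43 and 6.53 FPKM with FSH and 4.68, 5.01 and 4.6 FPKM in control libraries. PKIG, an inhibitor of that kinase, fell 1.64-fold, to 28.9, 31.1 and 30.9 FPKM with FSH against 50.9, 48.4 and 50.1 FPKM in control libraries. Among the enzymes that break down cyclic AMP, PDE3B rose 1.65-fold, and PDE8B, whose reads were divided, fell 1.41-fold. The regulators that end receptor signalling also went both ways: RGS4 and the receptor kinase GRK5 (1.53-fold) rose, and RGS3 fell 1.45-fold. The median log2 fold change of the 7 genes was 0.39, beside 0.41 over all tested genes. PDE7B, a further cyclic AMP phosphodiesterase, stayed under the filter, at 0.95, 0.95 and 0.81 FPKM with FSH and 0.29, 0.27 and 0.47 FPKM in control libraries.

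Of 44 cyclic AMP-induced and immediate-early transcription factors, 12 were tested, 8 higher and 4 lower. NR4A1, an orphan nuclear receptor that cyclic AMP is known to induce in steroid-producing cells, had 21, 25.3 and 20.6 FPKM with FSH and 8.59, 7.43 and 8.4 FPKM in control libraries (2.74-fold; edgeR adjusted p = 2.79e-07). The row for it is an assembled locus that the authors named by similarity to another mammal. EGR1, a zinc-finger factor that luteinizing hormone induces in granulosa cells, rose 1.85-fold, the AP-1 subunit JUNB 1.78-fold and MYC 1.71-fold. The 4 that fell were the clock gene PER2, at 0.4, 0.45 and 0.43 FPKM with FSH and 1.57, 1.06 and 1.46 FPKM in control libraries (3.18-fold lower), ATF3, KLF5 and KLF6. ATF3, a stress-induced transcription factor, had 3.8, 3.67 and 3.61 FPKM with FSH and 8.04, 7.83 and 7.03 FPKM in control libraries. The list therefore had members in both directions, although PER2 reached the filter through the control libraries alone and had to be lower with FSH. Its median log2 fold change over all members tested was 0.48, beside 0.41 over all tested genes.

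Of 38 steroidogenesis genes 5 were tested, and the 4 that make or support steroid hormones rose. CYP11A1, the mitochondrial enzyme that cleaves the side chain of cholesterol and starts steroid synthesis, had 540.2, 607 and 527 FPKM with FSH and 137, 163 and 146 FPKM in control libraries. Its log2 fold change was 1.91 ± 0.17 (3.75-fold; edgeR adjusted p = 1.26e-06), and the gene lies on chromosome 7, 59172829 to 59188479. FDXR, the reductase that starts the electron transfer to CYP11A1, had 27.8, 29.3 and 26.8 FPKM with FSH and 11.8, 13.3 and 12.3 FPKM in control libraries (2.23-fold). HSD17B1, which reduces oestrone to oestradiol, had 4.88, 6 and 5.39 FPKM with FSH and 2.74, 2.84 and 3.13 FPKM in control libraries (1.86-fold). HSD17B7, which has that activity and a step of cholesterol synthesis, had 17.6, 17.4 and 17.2 FPKM with FSH and 9.03, 8.64 and 7.91 FPKM in control libraries (2-fold). No library of one group reached into the other in these 4 genes, as in 98.7% of all tested genes. The gene of the list that fell was CYP51, a demethylase of cholesterol synthesis, at 7.02, 7.34 and 7.21 FPKM with FSH and 12.4, 15.1 and 13.6 FPKM in control libraries. The median of the 5 genes was 1.0, and STAR and CYP19A1 are not analysed here.

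Cholesterol synthesis and uptake went the other way: of 39 listed genes 11 were tested, 9 fell and 2 rose. The falls spanned the pathway, from ACAT2, which joins acetyl-CoA units (1.76-fold lower), through FDPS (1.45-fold), SQLE (1.76-fold) and LSS (1.49-fold) to CYP51 (1.91-fold) and MSMO1 (1.62-fold). SQLE, the epoxidase of squalene, had 4.54, 3.69 and 4.22 FPKM with FSH and 6.25, 8.23 and 7.39 FPKM in control libraries. INSIG1, the sterol-regulated protein that retains the SREBP activator in the endoplasmic reticulum, had 7.72, 7.17 and 7.43 FPKM with FSH and 14.3, 13.1 and 14.2 FPKM in control libraries (1.86-fold lower). The lowest control library of both SQLE and INSIG1 was above the highest FSH library, and 98.7% of all tested genes had no overlap. The genes that rose were HSD17B7 and ABCA1, which exports cholesterol from the cell, at 4.72, 4.43 and 4.88 FPKM with FSH and 2.71, 2.08 and 2.64 FPKM in control libraries. Their median log2 fold change was -0.57, beside 0.41 over all tested genes.

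Of 62 gonadal peptide and TGF-beta family genes 11 were tested, 4 higher and 7 lower. The peptides made by granulosa cells were among those that rose. INHBA, the beta A subunit shared by inhibin A and activin A, had 121, 134 and 115 FPKM with FSH and 42.9, 40.0 and 46.3 FPKM in control libraries (2.88-fold; edgeR adjusted p = 3.56e-08), in an assembled locus with divided reads. FST, which encodes follistatin, the protein that binds activin, had 51.7, 47.9 and 51 FPKM with FSH and 20.1, 20.8 and 18.6 FPKM in control libraries (2.54-fold). TGFB2 rose 1.47-fold and the signal transducer SMAD5 1.29-fold. The 7 that fell included ligands of the bone morphogenetic protein branch: beside GDF6, BMP4 had 15.6, 14.5 and 15.9 FPKM with FSH and 30.1, 26.7 and 27.3 FPKM in control libraries (1.84-fold lower). AMHR2, the receptor for anti-Müllerian hormone, had 1.31, 1 and 1 FPKM with FSH and 2.19, 2.71 and 2.8 FPKM in control libraries (2.36-fold lower), from divided reads. TGFB3, SMAD6, SMAD9 and LTBP2 also fell, of which SMAD9 missed the threshold with TMM factors (edgeR adjusted p = 0.155). The list's median log2 fold change was -0.62.

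Of 72 genes of insulin-like and other growth factor signalling 11 were tested, 5 higher, 5 lower and 1 not past the threshold. Their median log2 fold change was -0.39, beside 0.41 over all tested genes. IGFBP4, described above, was far ahead of the others. KITLG, the ligand with which granulosa cells signal to the oocyte, had 7.69, 6.72 and 6.92 FPKM with FSH and 5.02, 3.94 and 5.12 FPKM in control libraries (1.57-fold). MET, the receptor for hepatocyte growth factor, rose 1.58-fold and TGFA, a ligand of the EGF receptor, 1.35-fold. GAS6, the ligand of the AXL and MERTK receptors, had 53.8, 53.7 and 51.8 FPKM with FSH and 107, 105 and 103 FPKM in control libraries (1.98-fold lower). The ephrin receptor EPHA4 and its ligand EFNA1 both fell, 2.03-fold and 1.5-fold, as did FGFR2 and PDGFRB. HBEGF, another EGF receptor ligand, had 4.48, 3.56 and 2.88 FPKM with FSH and 5.24, 3.52 and 5.47 FPKM in control libraries, groups that overlapped (edgeR adjusted p = 0.0652).

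Of 21 genes of luteinization and the response to luteinizing hormone, 6 were tested, and CTSL, CYP11A1, PTGFR and LHCGR rose. The median log2 fold change of the 6 was 0.89, beside 0.41 over all tested genes. LHCGR, the receptor for luteinizing hormone, had 3.46, 4.08 and 3.23 FPKM with FSH and 1.95, 2.22 and 1.96 FPKM in control libraries (1.72-fold; edgeR adjusted p = 0.000339). PTGFR, the prostaglandin F receptor through which the corpus luteum regresses, had 40.7, 44.1 and 34.1 FPKM with FSH and 20.3, 23 and 19.8 FPKM in control libraries (2.01-fold). Both receptors had separate groups, as 98.7% of all tested genes did, at levels far below that of CYP11A1. The 2 that fell were ADAMTS1, a protease induced at ovulation and counted from divided reads (1.42-fold lower), and SFRP4, a secreted Wnt antagonist, at 38.2, 37.5 and 34.8 FPKM with FSH and 54.5, 64.1 and 57.7 FPKM in control libraries.

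Of 68 lysosome and cathepsin genes 5 were tested, and the rise of CTSL was not shared by the list. CTSL and SLC46A3 rose, whereas cathepsin K (CTSK, divided reads) fell 1.63-fold, the sulfatase ARSB 1.62-fold and CST6, an inhibitor of cysteine cathepsins, 1.7-fold. CST6 had 3.05, 2.52 and 2.93 FPKM with FSH and 5.11, 5.49 and 3.91 FPKM in control libraries, where control replicate 3 was the lowest of its group and still above every FSH library. Over the 5 genes the median log2 fold change was -0.70.

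Of 50 glucose uptake and glycolysis genes 10 were tested, 9 higher and 1 lower. SLC2A3, a high-affinity glucose transporter, had 71.2, 70.1 and 77.1 FPKM with FSH and 28.6, 27.1 and 30.2 FPKM in control libraries (2.54-fold; edgeR adjusted p = 5.2e-08). SLC2A1, the basal glucose transporter, rose 1.68-fold. HK2, the hexokinase that traps glucose in the cell, had 33.1, 29.1 and 33.4 FPKM with FSH and 17.2, 12.9 and 16.6 FPKM in control libraries (2.05-fold). ENO1, a glycolytic enolase, was the gene with the highest level among those that rose, at 2896, 2811 and 2834 FPKM with FSH and 2095, 1863 and 1988 FPKM in control libraries (1.44-fold). SLC16A3, which exports lactate, had 189.7, 175 and 192 FPKM with FSH and 100.2, 78.9 and 93.6 FPKM in control libraries (2.04-fold). The groups were separate for each of these, as for 98.7% of all tested genes. The 1 that fell was the muscle enolase ENO3, at 105, 109 and 106 FPKM with FSH and 189, 194 and 193 FPKM in control libraries (1.8-fold lower). The median log2 fold change of the 10 genes was 0.53, close to the 0.41 over all tested genes.

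Of 45 genes of the hypoxia response and angiogenesis 11 were tested, 8 higher and 3 lower. Their median log2 fold change was 0.53, near the 0.41 over all tested genes. VEGFA, the main growth factor for blood vessels, had 53.5, 52.3 and 57.7 FPKM with FSH and 19, 20.8 and 18.9 FPKM in control libraries (2.83-fold; edgeR adjusted p = 9.76e-07). DDIT4, a stress-induced inhibitor of mTORC1, had 137, 140.4 and 119 FPKM with FSH and 42.9, 37.3 and 41 FPKM in control libraries (3.27-fold). BNIP3, a mitophagy receptor, rose 1.8-fold. EDN1, which encodes endothelin, a vasoconstrictor peptide, had 4.15, 4.69 and 5.9 FPKM with FSH and 13.8, 13 and 13.8 FPKM in control libraries (2.74-fold lower). VEGFC and the co-receptor NRP2 fell 1.38-fold and 1.64-fold, so VEGFA and VEGFC, which act on blood and lymph vessels, went opposite ways.

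Of 59 genes of the cumulus and follicular matrix, proteases and their inhibitors, 12 were tested, 7 higher and 5 lower. Their median log2 fold change was 0.55, near the 0.41 over all tested genes. VCAN, which encodes versican, a large proteoglycan of the expanding cumulus, had 149, 147 and 154 FPKM with FSH and 79.9, 76.8 and 87.7 FPKM in control libraries (1.83-fold; edgeR adjusted p = 7.19e-06). PTX3, which links hyaluronan chains in that matrix, had 7.26, 8.79 and 8.13 FPKM with FSH and 5.99, 4.72 and 5.12 FPKM in control libraries (1.53-fold). PLAT, the tissue plasminogen activator that granulosa cells secrete, had 165, 159.9 and 158 FPKM with FSH and 114, 113 and 115 FPKM in control libraries (1.41-fold). Groups were separate in all 3, as in 98.7% of all tested genes. Within the ADAMTS proteases the members split: ADAMTS4 (13.1-fold), ADAMTSL4 (2.81-fold) and ADAMTS15 (1.53-fold) rose, and ADAMTS1 (1.42-fold) and ADAMTS14 (1.85-fold) fell. TIMP2, an inhibitor of matrix metalloproteases, fell 1.41-fold.

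Collagens and other matrix proteins leaned the other way, with 6 higher and 9 lower of 15 tested (73 listed) and a median of -0.43. COL1A1, the alpha chain of fibrillar collagen type I, had 46.2, 46.5 and 48.2 FPKM with FSH and 68.5, 70.2 and 75.4 FPKM in control libraries (1.52-fold lower). COL11A1, another fibrillar collagen, had 16.6, 16.7 and 16.6 FPKM with FSH and 38.9, 42.1 and 44.6 FPKM in control libraries (2.52-fold lower). SPARC, a collagen-binding matrix protein, was among the most abundant genes that fell, at 714, 706 and 703 FPKM with FSH and 956, 947 and 968 FPKM in control libraries. Its fall was small, 1.35-fold, and its groups did not overlap, as in 98.7% of all tested genes. Against these, COL12A1 (1.41-fold), COL14A1 (1.36-fold) and the basement membrane protein NID2 (1.46-fold) rose. ITGA2, a collagen-binding integrin subunit with divided reads, had 9.11, 9.74 and 10.1 FPKM with FSH and 1.38, 2.22 and 1.86 FPKM in control libraries (5.14-fold), whereas the integrin subunits ITGA8 and ITGA11 fell 1.48-fold and 1.32-fold.

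The contractile and actin cytoskeleton list had the most members tested, 17 of 60, and 15 of them fell. ACTA2, the smooth muscle actin, was the most abundant transcript in the comparison, at 2936, 2965 and 2909.97 FPKM with FSH and 7158, 7451 and 7298 FPKM in control libraries. Its log2 fold change was -1.31 ± 0.054 (2.48-fold lower; edgeR adjusted p = 1.46e-09), from reads that were partly divided between loci. TPM1, a tropomyosin that winds along actin filaments, had 1067, 1061 and 1059.5 FPKM with FSH and 1507, 1391 and 1503 FPKM in control libraries (1.38-fold lower). LMOD1, which nucleates actin filaments in smooth muscle, had 1.83, 2.1 and 1.88 FPKM with FSH and 6, 6.02 and 7.15 FPKM in control libraries (3.31-fold lower). RRAD, a Ras-related GTPase and inhibitor of calcium channels, had 81.5, 66.5 and 71.4 FPKM with FSH and 187, 205 and 192 FPKM in control libraries (2.66-fold lower). In these 4 genes the lowest control library was above the highest FSH library. Groups without overlap were found in 98.7% of all tested genes. DES, the intermediate filament desmin, varied within both groups, at 1.39, 0.58 and 2.17 FPKM with FSH and 4.32, 2.87 and 3.91 FPKM in control libraries. SMTN, CNN2, CALD1, CSRP1, FLNC, RND1 and the caveolar genes CAV1, CAVIN1 and CAVIN2 fell by between 1.31-fold (CAVIN1) and 2.27-fold (CAVIN2). CAVIN2 reached the filter through the control libraries alone, so it had to be lower with FSH.

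The 2 contractile genes that rose were CNN1, the smooth muscle calponin, and MYOCD, the coactivator that switches on smooth muscle genes with serum response factor. CNN1 had 155, 150.5 and 140.4 FPKM with FSH and 93.6, 98.8 and 99.5 FPKM in control libraries (1.52-fold; edgeR adjusted p = 0.000152). MYOCD had 3.13, 3.13 and 3.24 FPKM with FSH and 2.47, 2.01 and 2.49 FPKM in control libraries (1.36-fold; edgeR adjusted p = 0.0113). The list was therefore not uniform. The median log2 fold change of the 17 genes was -0.71, against 0.41 over all tested genes. Of 34 YAP and TEAD target genes 6 were tested: ANKRD1, WWC1, GADD45A and VGLL3 fell, and AMOTL1 (1.59-fold) and TGFB2 rose. ANKRD1 was far beyond the other 3 that fell, whose falls lay between 1.27-fold and 1.61-fold. VGLL3 missed the threshold with TMM factors (edgeR adjusted p = 0.14).

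Of 31 heat shock protein genes 6 were tested, and the 4 small heat shock proteins all fell. Besides HSPB3 these were HSPB7, at 0.83, 1.13 and 1.08 FPKM with FSH and 2.99, 3 and 2.86 FPKM in control libraries (2.9-fold lower), the chaperone alpha B-crystallin (CRYAB), at 1.73, 1.73 and 2.27 FPKM with FSH and 3.06, 4.31 and 5.25 FPKM in control libraries (2.22-fold lower), and HSPB2 (2-fold lower). Small heat shock proteins are chaperones of the contractile apparatus in muscle. HSPA13 (divided reads) and the zinc-finger protein ZFAND2A rose 1.5-fold and 1.4-fold. This list had the lowest median of the 24, -1.07.

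**Figure D3:**
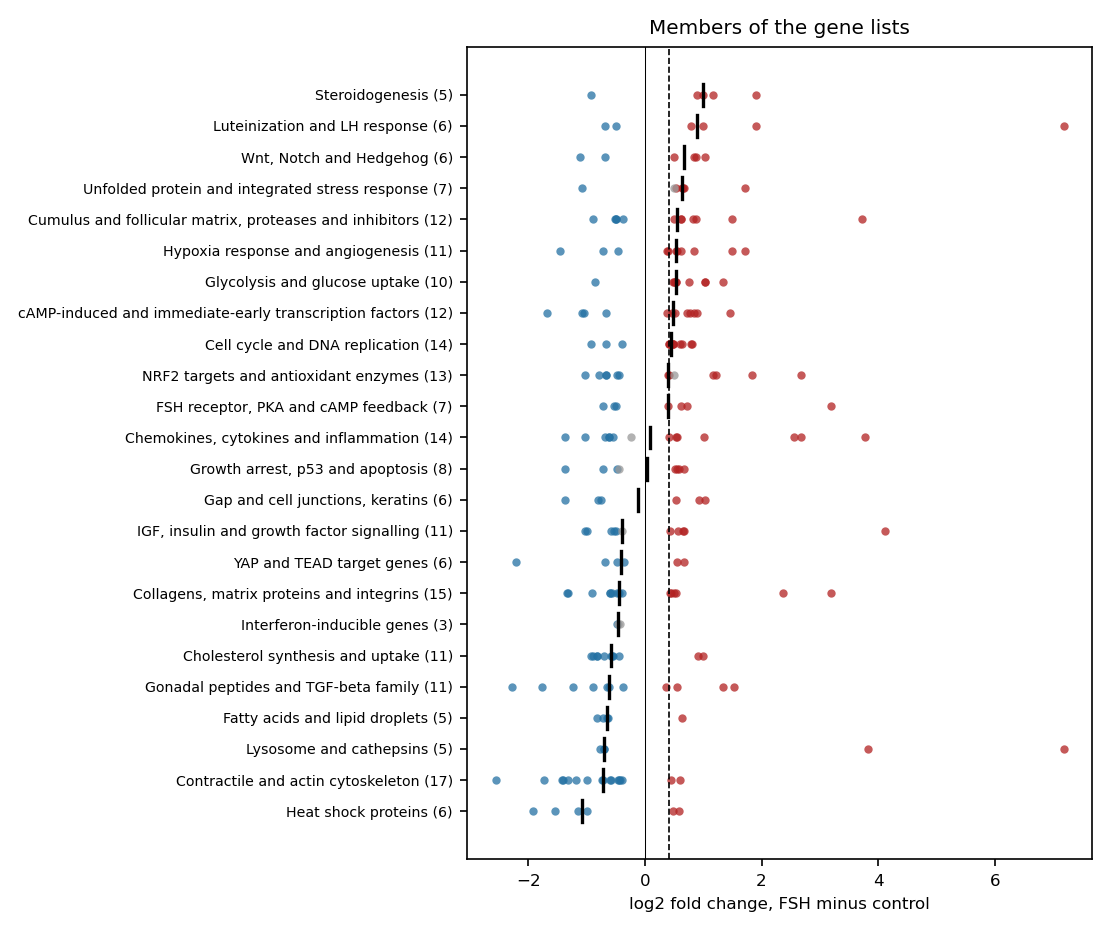
Log2 fold change (FSH minus control, horizontal axis) of each tested member of the 24 gene lists, with the number tested in brackets; red points were higher with FSH, blue lower and grey not past the threshold. Short black bars are list medians, the dashed line is the median of all 919 genes (0.41), and lists run from the highest median, steroidogenesis, to the lowest, heat shock proteins.

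Of 65 Wnt, Notch and Hedgehog genes 6 were tested, 4 higher and 2 lower, with a median log2 fold change of 0.67 beside 0.41 over all tested genes. AXIN2, a feedback inhibitor and widely used readout of Wnt signalling, had 2.02, 1.83 and 1.76 FPKM with FSH and 0.92, 1.11 and 1.03 FPKM in control libraries (1.85-fold). The receptors FZD8 and FZD5 rose 1.8-fold and 1.41-fold. The secreted antagonists split, with SFRP1 at 2.79, 3.01 and 3.06 FPKM with FSH and 1.23, 1.77 and 1.33 FPKM in control libraries (2.04-fold), and SFRP4 lower. JAG1, a Notch ligand, had 1.31, 1.07 and 1.36 FPKM with FSH and 2.93, 2.18 and 3.03 FPKM in control libraries (2.17-fold lower).

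Of 43 junction and keratin genes 6 were tested, 3 higher and 3 lower, with a median log2 fold change of -0.11 beside 0.41 over all tested genes. GJA1, which encodes the main gap junction protein between granulosa cells, had 622, 617 and 599 FPKM with FSH and 320.1, 325 and 323 FPKM in control libraries (1.9-fold; edgeR adjusted p = 1.7e-06). CDH11, a cadherin with divided reads, rose 2.05-fold and the desmosomal protein PKP2 1.45-fold. VCAM1, an adhesion molecule, had 5.04, 5.07 and 4.66 FPKM with FSH and 10.8, 15.4 and 11.8 FPKM in control libraries (2.58-fold lower). The epithelial keratins KRT8 and KRT7 fell 1.69-fold and 1.75-fold.

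Of 74 cell cycle and DNA replication genes 14 were tested, and 11 rose, each by less than 2-fold. Among them were 4 subunits or partners of the replicative helicase: MCM2 (1.34-fold), MCM5 (1.35-fold), MCM7 (1.39-fold, divided reads) and MCM10 (1.52-fold, divided reads). The catalytic subunits of the replicative polymerases, POLD1 and POLE, rose 1.34-fold and 1.4-fold. E2F1, the transcription factor of the entry into S phase, had 17.8, 18.3 and 19.6 FPKM with FSH and 12.7, 13.3 and 14.1 FPKM in control libraries (1.39-fold). The cyclins went in opposite directions: CCND3 had 116, 121 and 125 FPKM with FSH and 88.3, 92.9 and 89.8 FPKM in control libraries (1.33-fold higher, divided reads). CCND1 had 3.8, 4.21 and 4.27 FPKM with FSH and 7.73, 7.54 and 8.17 FPKM in control libraries (1.9-fold lower). CDKN1C, an inhibitor of cyclin-dependent kinases, and the phosphatase CDC25B also fell. The median of the 14 genes, 0.45, was near the 0.41 over all tested genes, and MCM2 missed the threshold with median-ratio size factors (edgeR adjusted p = 0.0514), as CDC25B did with TMM factors (0.0546). CCND2 and MKI67 are not analysed here.

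Growth arrest, p53 and apoptosis genes had 4 higher, 3 lower and 1 not past the threshold of 8 tested (49 listed). Their median log2 fold change was 0.03, beside 0.41 over all tested genes. PHLDA3, a p53 target that restrains AKT, had 47, 44.6 and 48.3 FPKM with FSH and 117, 128 and 115 FPKM in control libraries (2.57-fold lower). The stress sensors GADD45A and GADD45B fell 1.4-fold and 1.64-fold, while GADD45G rose 1.43-fold. BBC3, a pro-apoptotic BCL2 family member, had 3.71, 2.83 and 3.17 FPKM with FSH and 4.93, 4.5 and 3.72 FPKM in control libraries (edgeR adjusted p = 0.0536, and 0.0289 with median-ratio size factors). Of 45 unfolded protein and integrated stress response genes 7 were tested, with 5 higher, led by DDIT4, and ATF3 lower. SLC7A11, the cystine importer, had 0.56, 0.71 and 0.63 FPKM with FSH and 0.41, 0.49 and 0.44 FPKM in control libraries and missed the threshold (edgeR adjusted p = 0.053). It passed as higher with TMM factors, median-ratio size factors and column sums (edgeR adjusted p = 0.00593, 0.0289 and 0.0196).

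NRF2 targets and antioxidant enzymes changed in both directions, with 6 higher, 6 lower and 1 not past the threshold of 13 tested (63 listed). NQO1, a quinone reductase, had 13.3, 14.6 and 12.4 FPKM with FSH and 4.07, 3.91 and 3.21 FPKM in control libraries (3.59-fold). The glutathione transferase GSTA1 (divided reads) had 20.6, 24.3 and 19.1 FPKM with FSH and 2.99, 4 and 2.97 FPKM in control libraries (6.38-fold). PRDX6, a peroxiredoxin with divided reads, had 364, 379 and 379 FPKM with FSH and 156, 173 and 154 FPKM in control libraries (2.32-fold). HMOX1, the haem-degrading enzyme, had 46.2, 51.3 and 50.2 FPKM with FSH and 95.2, 111 and 95 FPKM in control libraries (2.04-fold lower). NQO1 and HMOX1, both classical NRF2 targets, therefore moved in opposite directions with FSH. SELENOP, a selenium carrier with divided reads, and EPHX1, an epoxide hydrolase with divided reads, fell 1.59-fold and 1.72-fold.

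Of 68 chemokine, cytokine and inflammation genes 14 were tested, 7 higher, 6 lower and 1 not past the threshold. Their median log2 fold change was 0.09, beside 0.41 over all tested genes. After HP the largest rises were in CXCL12, a chemokine for cells that carry CXCR4, and IL33, an alarmin. CXCL12 had 5.56, 3.91 and 5.1 FPKM with FSH and 0.86, 0.83 and 0.23 FPKM in control libraries (6.4-fold). Control replicate 3 was well under the other control libraries. CXCL12 reached the filter through the FSH libraries alone, so it had to be higher with FSH. IL33, with divided reads, had 24.8, 30.5 and 25.7 FPKM with FSH and 3.56, 5.6 and 3.97 FPKM in control libraries (5.86-fold). IL1RL1, the receptor for IL33, went the other way, at 5.65, 5.33 and 5.67 FPKM with FSH and 11.8, 11.4 and 10.5 FPKM in control libraries (2.03-fold lower). CCL2, IL1A, CSF1 and PTGIS fell by between 1.45-fold (IL1A) and 1.6-fold (PTGIS). LIF, a cytokine of the interleukin family, had 3.74, 4.96 and 3.77 FPKM with FSH and 5.21, 6.31 and 4.98 FPKM in control libraries (edgeR adjusted p = 0.219), groups that were close together without overlapping.

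Interferon-inducible and fatty acid genes were few. Of 51 interferon-inducible genes 3 were tested, and PSMB8, an immunoproteasome subunit, fell 1.39-fold. BST2, with 5.57, 6.1 and 4.12 FPKM with FSH and 5.97, 7.76 and 7.19 FPKM in control libraries, and DDX60, with 1.51, 1.65 and 1.36 FPKM with FSH and 2.05, 2.19 and 1.95 FPKM in control libraries, missed the threshold (edgeR adjusted p = 0.0655 and 0.1). BST2 passed with median-ratio size factors. Of 73 fatty acid and lipid droplet genes 5 were tested. ACSL4, which activates arachidonic acid, had 305, 324 and 312 FPKM with FSH and 195, 223 and 192 FPKM in control libraries (1.55-fold). CPT1B, the muscle form of the carnitine palmitoyltransferase that admits fatty acids to mitochondria, fell 1.76-fold, PPARG 1.63-fold and the lipase MGLL, with divided reads, 1.56-fold. AKR1CL1, an aldo-keto reductase on none of the lists, had the second highest level of the genes that rose, at 1846, 1813 and 1764 FPKM with FSH and 943, 1037 and 901 FPKM in control libraries (1.88-fold).

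The 19 genes that missed the threshold were RPS6KA2, SLC7A11, F2, RPP25, LIF, CEP83, HBEGF, CISH, TBC1D2B, INAFM1, BST2, PTGR1, GALNT15, BBC3, DDX60, ADD3, CHAD, MTSS1 and CCR1. In all, 209 tested genes were on at least 1 of the 24 lists and 710 on none. A further 16 listed genes were under the filter, among them EREG, a ligand of the EGF receptor, PPARGC1A, a coactivator of mitochondrial biogenesis, and CEBPA, a transcription factor.

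Setting FSH beside sulforaphane shows, for the genes of this table, how far each change set FSH cells apart from cells under another treatment. The 2 comparisons share the FSH libraries. Of the 19 genes that missed the threshold in FSH against control, 18 passed in sulforaphane against control. How the rows were chosen is not given, so the shares that follow describe this table only. Against sulforaphane, 512 of the 919 genes passed (55.7%), 393 higher (42.8%) and 119 lower (12.9%) with FSH. The 11 genes described among the largest rises were all also higher with FSH than with sulforaphane. For MRO, SV2C, SLC46A3, ADAMTS4 and RGS4 the filter had set this direction. They reached 1 FPKM through the FSH libraries alone. CTSL had 3.4, 2.65 and 3.67 FPKM in the sulforaphane libraries, and its log2 fold change of FSH against sulforaphane was 8.34 (95% confidence interval 8.04 to 8.65; edgeR adjusted p = 2.28e-13). IGFBP4 had 7.81, 7.68 and 6.25 FPKM in those libraries (5.26; 5.0 to 5.53) and RGS4 0.38, 0.4 and 0.46 FPKM (4.34; 3.91 to 4.77). The smallest of these differences was that of MT-2B, 1.90, with 15.6, 20.2 and 24.4 FPKM in the sulforaphane libraries.

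Of the 12 largest falls, 3 passed in FSH against sulforaphane. GDF6 (1.04; 0.65 to 1.43) and LDB3 (0.85; 0.25 to 1.44) were higher with FSH than with sulforaphane, and HSPB3 was lower (-0.98; -1.46 to -0.49). The other 9 missed the threshold. TRIM63, HDAC9, LRRC39, DIRAS2 and LDB3 reached the filter through the control libraries alone. They had to lie under 1 FPKM with both treatments, so their nearness there was partly set by the filter. For MYH11 the log2 fold change of FSH against sulforaphane was -0.17, with an interval of -0.43 to 0.09, and for AGTR1 it was 0.05, with an interval of -0.24 to 0.33. For TRIM63 the interval was wide, -1.70 to 1.59, at 0.05, 0.14 and 0.48 FPKM in the sulforaphane libraries. Among steroid and gonadal genes, CYP11A1 (2.43; 2.05 to 2.81), INHBA (2.19; 1.98 to 2.40), NR4A1 (3.51; 3.23 to 3.78) and LHCGR (1.82; 1.47 to 2.16) were all higher with FSH than with sulforaphane. For GJA1 (-0.11 to 0.26), MYC (-0.26 to 0.10), SLC2A3 (-0.26 to 0.10) and ENO1 (-0.23 to 0.07) the interval of the difference included 0. NQO1 was lower with FSH, at 13.3, 14.6 and 12.4 FPKM, against 87.8, 84.7 and 126 FPKM with sulforaphane (-2.89; -3.23 to -2.55).

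**Figure D4:**
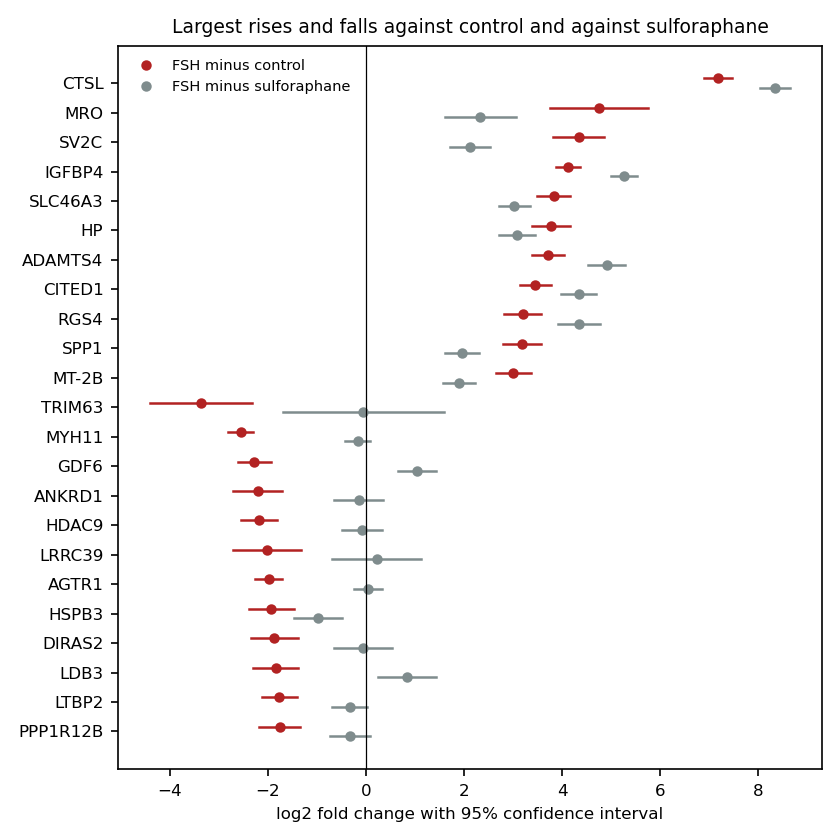
Log2 fold change with its 95% confidence interval for FSH minus control (red) and FSH minus sulforaphane (grey), for 11 of the 12 largest rises (top) and the 12 largest falls (bottom) in FSH against control. All grey intervals of the rises lie above 0, while most grey intervals of the falls include 0.

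Levels of cell type marker genes were summed, but the sums cannot check the cell type named in the labels. The table holds hardly any gene with a small difference from control, so markers at equal levels could hardly enter. The granulosa markers also include known targets of FSH, genes of steroid synthesis and an inhibin subunit. Of 20 granulosa markers 7 are in the table, and their summed level was 1306 to 1419 FPKM in FSH libraries, 712 to 790.1 FPKM in sulforaphane libraries and 530.0 to 559 FPKM in control libraries. GJA1 and CYP11A1 supplied most of it, FSHR, CYP19A1 and FOXL2 are not analysed here, and AMHR2 fell while the other 6 rose. Smooth muscle markers, 7 of 10, summed to 3124 to 3187 FPKM in FSH libraries, 2356 to 2577 FPKM in sulforaphane libraries and 7387 to 7681 FPKM in control libraries, most of it ACTA2. All 7 are members of the contractile list described above, among them CNN1 and MYOCD, which rose. The part of these markers in the other changes was not tested. Stromal fibroblast markers, 3 of 10 (THY1, COL1A1 and PDGFRB), summed to 56.9 to 60.6 FPKM with FSH, 44.3 to 52.0 FPKM with sulforaphane and 85.4 to 91.6 FPKM in control libraries. Surface epithelium markers, 3 of 10 (the keratins KRT7, KRT18 and KRT8), summed to 89.4 to 95.3 FPKM with FSH. The sums were 39.4 to 46.5 FPKM with sulforaphane and 153.7 to 157 FPKM in control libraries. Whether the share of such cells differed between the groups was not tested. Theca markers (2 of 9) and luteal markers (3 of 8) consisted mainly of CYP11A1, which the granulosa list also holds. The 2 endothelial markers, KDR and TIE1, summed to 2.05 to 2.2 FPKM with FSH, 1.24 to 2.04 FPKM with sulforaphane and 1.25 to 1.27 FPKM in control libraries. Markers of leukocytes, oocytes and erythroid cells are not analysed here.

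**Figure D5:**
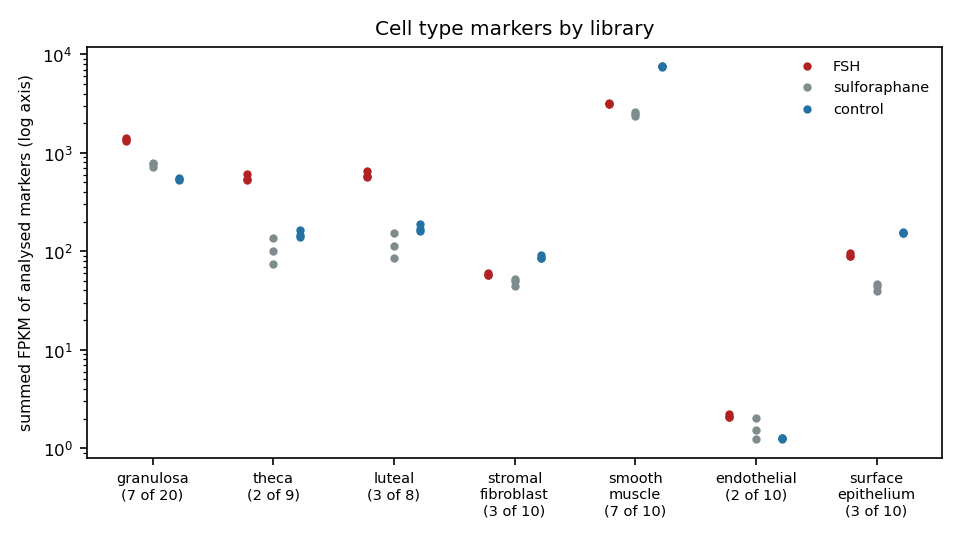
Summed FPKM of the analysed markers of each cell type (log axis) in each library of FSH (red), sulforaphane (grey) and control (blue) cells, with the number of markers analysed of those listed. Granulosa marker sums are highest with FSH, and smooth muscle, fibroblast and surface epithelium sums are highest in control libraries.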

How the data were processed

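RNA of primary porcine granulosa cells was measured by sequencing of oligo(dT)-selected mRNA on the Illumina HiSeq2500, per the labels' protocols. Per the submitters' processing notes the build was Sscrofa11.1 and the tools included edgeR, DESeq2, StringTie 1.3.1, HISAT2, Bowtie2 2.2.8 and fastp; their roles are not stated there. The authors deposited for each gene and library an estimated count, not whole where reads were divided between loci (143 of 1081 rows), and an FPKM value, per the file headers. Of the rows, 1053 had an NCBI gene ID that was found in the RefSeq annotation, and 28 were loci assembled by the authors, which carry no coordinates here.

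Genes with at least 1 FPKM in 3 or more of 9 libraries were kept (919), leaving out 162. Dividing counts by FPKM values gave each library's depth (mean 18.8, in units of 1000000 fragments), which served as library size. Estimated counts were rounded and fitted with edgeR 4.0.16 in R 4.3.3 (quasi-likelihood test, 9 libraries, 3 group means, no covariate), with Benjamini-Hochberg adjustment over all 919 genes. The standard error is the absolute log2 fold change divided by the root of F. The common dispersion was 0.0118, a coefficient of variation of 10.9% between replicates. The procedure was tested on simulated data in which most genes were equal between groups. In this table most genes differed, so that test does not cover its setting. Alternatives were TMM and median-ratio scaling, column sums, other filters, DESeq2 1.42.0, limma 3.58.1 on log2(FPKM + pseudocount), fits of fewer libraries and a replicate block.

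Named were, in each direction, the 12 genes with a symbol and the largest change whose libraries did not overlap, the 3 with the highest FSH level, the 3 largest changes in each of 24 lists, CYP11A1 and other list members. The members and lists were chosen with earlier results of these data known. With 3 libraries against 3 an exact permutation test cannot go below p = 0.1, so single values rest on the fit across all genes. Some genes are not reported here. A planned description of promoter motifs was not run, since no sequence was used here.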

Additional observations from a re-analysis of the deposited data

How the results depend on the processing

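None of the 919 genes changed the direction of its FSH against control difference under any setting run. The 900 genes past the threshold (508 higher, 392 lower) became 485 (264 and 221) with a filter of a mean of at least 5 FPKM, which tests fewer genes, and 214 (122 and 92) when a change of at least 2-fold was also required. With TMM factors 865 passed, with median-ratio size factors 907, with column sums 894, without a filter 1061, with DESeq2 896, with limma between 893 and 900, and with the FSH and control libraries alone 919. Leaving out each library in turn gave 857 to 869 genes, 484 to 492 higher and 373 to 379 lower.

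With the replicate number as a block 903 passed. The deviations of FSH and control libraries of the same number correlated at 0.053, 0.197 and 0.079, so the numbers were not taken to pair the libraries, although each FSH library correlated best with the control library of its own number. BST2 passed under 6 of the alternatives. The median of the junction and keratin list was -0.11, and 0.06 with TMM factors. Depth limits the folds of genes with few control counts, such as MRO. Hardly any row has a small difference from control, and no dose, duration or origin of replicates is given.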

Other observations

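Of 5 rows that the authors named gag or pol, 4 annotated as gag or gag-pol proteins rose with FSH and 1 fell; they were chosen for description after their values were seen. The pol row had 257, 275 and 291 FPKM with FSH and 42.5, 53.1 and 45 FPKM in control libraries (log2 fold change 2.55 ± 0.11; edgeR adjusted p = 2.63e-09). The 3 gag rows had log2 fold changes of 2.62, 2.52 and 1.97. Reads of these 4 were divided between loci, so the level of any single copy is uncertain. With sulforaphane the pol row had 108, 121 and 134 FPKM, lower than with FSH (1.18; 95% confidence interval 0.94 to 1.41). The row that fell, also named Pol and annotated as an endonuclease and reverse transcriptase, had 1.28, 1.09 and 1.53 FPKM with FSH and 2.57, 2.45 and 2.93 FPKM in control libraries.

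Grouped by words in the deposited descriptions, also after values were seen, 5 groups can be read against the shares over all tested genes, 55.3% higher and 42.7% lower. The 26 solute carriers had 19 higher, 6 lower and 1 not past the threshold, the 45 zinc-finger, transcription factor and homeobox genes 33 higher and 12 lower, and the 66 receptor genes 39 higher, 26 lower and 1 not past the threshold. Descriptions with muscle, myo or cardi belonged to 13 genes, 2 higher and 11 lower. Descriptions that name a channel or potassium, sodium, calcium or chloride belonged to 19 genes, 4 higher and 15 lower (median log2 fold change -0.56, beside 0.41 over all tested genes). Among them KCNJ2, an inward rectifier potassium channel with divided reads, had 3.32, 2.31 and 2.73 FPKM with FSH and 8.01, 7.43 and 7.42 FPKM in control libraries. CLIC5, a chloride intracellular channel protein, had 1.84, 2.61 and 1.84 FPKM with FSH and 6.27, 7.35 and 6.75 FPKM in control libraries. KCNA5, a voltage-gated potassium channel, had 0.74, 0.78 and 0.86 FPKM with FSH, 0.04, 0 and 0.02 FPKM with sulforaphane and 1.75, 1.79 and 1.49 FPKM in control libraries. It reached the filter through the control libraries alone, so it had to be lower with FSH than in control cells. Its level with FSH was above that with sulforaphane.

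The deposited pathway annotation covers 383 tested genes, and 57 pathways hold at least 10 of them. Beside 55.3% higher over all tested genes, the 4 pathways with the largest share higher were insulin signalling (10 of 11), Wnt signalling (11 of 13), central carbon metabolism in cancer (8 of 10) and HIF-1 signalling (10 of 13). The 4 with the smallest share were hypertrophic cardiomyopathy (2 of 10), dilated cardiomyopathy (3 of 11), regulation of the actin cytoskeleton (4 of 14) and vascular smooth muscle contraction (3 of 10). The pathways share genes. In the insulin pathway, PHKA2, a subunit of phosphorylase kinase, had 3.79, 4.39 and 4.23 FPKM with FSH and 1.42, 1.36 and 1.38 FPKM in control libraries. SOCS2, a feedback inhibitor of cytokine receptors, had 4.59, 3.93 and 4.35 FPKM with FSH and 2.14, 1.85 and 1.93 FPKM in control libraries. TBC1D4, a regulator of glucose transporter traffic that the annotation puts under insulin resistance, had 25, 28.7 and 24.6 FPKM with FSH, 5, 5.19 and 5.13 FPKM with sulforaphane and 6.88, 6.71 and 7.21 FPKM in control libraries. CEMIP, a hyaluronan-degrading protein on no list, was among the most abundant genes that fell, at 223, 209.7 and 256 FPKM with FSH and 776, 699.7 and 845 FPKM in control libraries (3.37-fold lower).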
